A study of Mus musculus with 8 samples.

Results

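The cytosolic ribosomal proteins were followed in spleen donor T cells that were taken on day 6 after HCT (hematopoietic cell transplantation). Members were the gene rows whose name starts with Rpl or Rps and a digit, together with Rplp0, Rplp1, Rplp2 and Rpsa. Names of the S6 kinase family (Rps6k) and names marked as pseudogenes were left out. This gave 89 of 25078 gene rows, of which 84 passed the filter on low counts and were tested among 12428 genes. By role, 43 were proteins of the large subunit, 31 of the small subunit and 3 of the P stalk, 8 were paralogs, and 2 carry such a name without being subunits (Rpl7l1, Rps19bp1). The role of Rpl32l and Rpl37rt was not assigned. Ribosomal proteins with other names, translation factors and genes of ribosome assembly lie outside the rule and are given for comparison.

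The donors were C57BL/6 mice, either wild type (WT) or STAT3KO, in which Cre under Cd4 regulatory sequences deletes a floxed part of Stat3 in T cells. Their T cells were given with T-cell-depleted bone marrow to lethally irradiated WT BALB/c recipients, so all samples came from an MHC-mismatched transplant. Donor cells were sorted as CD4 or CD8 T cells, which makes 4 groups, WT and STAT3KO of each. Each library pooled several recipients and each group had 2 libraries, and the age of the mice is not in the labels. P-values therefore measure the spread between pools, and 2 libraries per group limit every test below.

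Ribosomal proteins fold onto ribosomal RNA to form the small subunit, which decodes the messenger RNA, and the large subunit, which joins amino acids. The stalk proteins Rplp0, Rplp1 and Rplp2 recruit the elongation factors. The subunits are needed in equal amounts, and their messenger RNAs belong to the most abundant of a dividing cell, such as an activated T cell. Most of these messages begin with a run of pyrimidines, the terminal oligopyrimidine (TOP) motif, through which mTORC1 controls their translation, and Myc raises the transcription of genes for ribosome assembly.

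The libraries held 20171396 to 23282757 counts. Stat3 lay between 428 and 436 CPM (read counts relative to the TMM-adjusted total of the library) in the WT libraries and between 120 and 143 CPM in the STAT3KO libraries. Cd4 lay between 1360.5 and 1602 CPM in the CD4 libraries and at 1.04 to 8.16 CPM in the CD8 libraries. Cd8a lay between 819 and 984 CPM in the CD8 libraries and at 1.70 to 15.996 CPM in the CD4 libraries. The marker sums that follow are CPM of the plain library total, without the TMM adjustment. The summed level of 7 macrophage and monocyte markers varied between 4.85 and 73.6 CPM and its ranges overlapped between all 4 groups. B cell markers (7 listed) summed to 1.04 to 2.78 CPM in CD4 and 12.4 to 13.3 CPM in CD8 libraries. Markers of exocrine pancreas and hepatocytes (6 listed) summed to 0.0947 and 38.0 CPM in the STAT3KO CD8 libraries. In the other groups they summed to 2.55 CPM or less. The part of such cells in the values below was not tested. In sorted cells, too, less RNA per cell and fewer cells with a given message cannot be told apart.

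Transcript starts were taken from RefSeq (GRCm38.p6) for the 67 members with a matching start. A run of at least 8 pyrimidines within 5 bases of the start was present in 22 of these, or 32.8%, against 9.87% of the 18502 genes with a start. The longest such run had a median of 5 bases in the members and 3 bases over all genes, and ranged from 1 to 21 bases in the members. The lines below show 15 bases before and 15 bases from the start for members to which the results return, with the part of the pyrimidine run that falls in this window in capitals.
Rpl4 (chr9:64173372-64173401, plus strand): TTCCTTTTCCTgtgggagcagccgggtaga
Rpl13a (chr7:45128731-45128760, minus strand): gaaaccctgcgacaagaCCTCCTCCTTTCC
Rpl15 (chr14:18270972-18271001, minus strand): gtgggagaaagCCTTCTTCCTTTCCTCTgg
Rps6 (chr4:86857353-86857382, minus strand): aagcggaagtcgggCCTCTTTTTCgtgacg
Rps10 (chr17:27635230-27635259, minus strand): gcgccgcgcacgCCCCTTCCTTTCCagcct
Rps27l (chr9:66946071-66946100, plus strand): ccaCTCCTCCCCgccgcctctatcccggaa
Rpl22l1 (chr3:28805493-28805522, plus strand): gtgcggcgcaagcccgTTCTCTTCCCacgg
Rpl10 (chrX:74270801-74270830, plus strand): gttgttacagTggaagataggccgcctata
Rpl10 is shown as a member without such a run at its RefSeq start. Annotated starts can lie a few bases from the start that a cell uses, so the absence of a run in this window says only that these letters are not there.

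Other motifs were searched on both strands in the 250 bases before and 50 bases after the start. The STAT motif TTCNNNGAA was found in 4 members (Rpl4, Rpl35, Rpl36al and Rplp0), or 5.97%, against 8.11% of all genes. The E-box CACGTG, which Myc can bind, was found in 5 members, or 7.46%, against 8.12% of all genes. The ETS core CCGGAAG was found in 25 members, or 37.3%, against 11.8% of all genes. A match describes the sequence and is not evidence of binding.

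The members took 1.54% to 2.27% of all counts. The share was 1.66% and 2.27% in the WT CD4 libraries (replicates 1 and 2) and 1.54% and 1.77% in the STAT3KO CD4 libraries. It was 1.61% and 1.90% in the WT CD8 libraries and 1.71% and 1.61% in the STAT3KO CD8 libraries. The highest share belonged to WT CD4 replicate 2, and the groups overlapped in both cell types. Small-subunit, large-subunit and stalk members each had their highest share in that same library, at 0.961%, 1.02% and 0.243% of the counts.

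**Figure D1:**
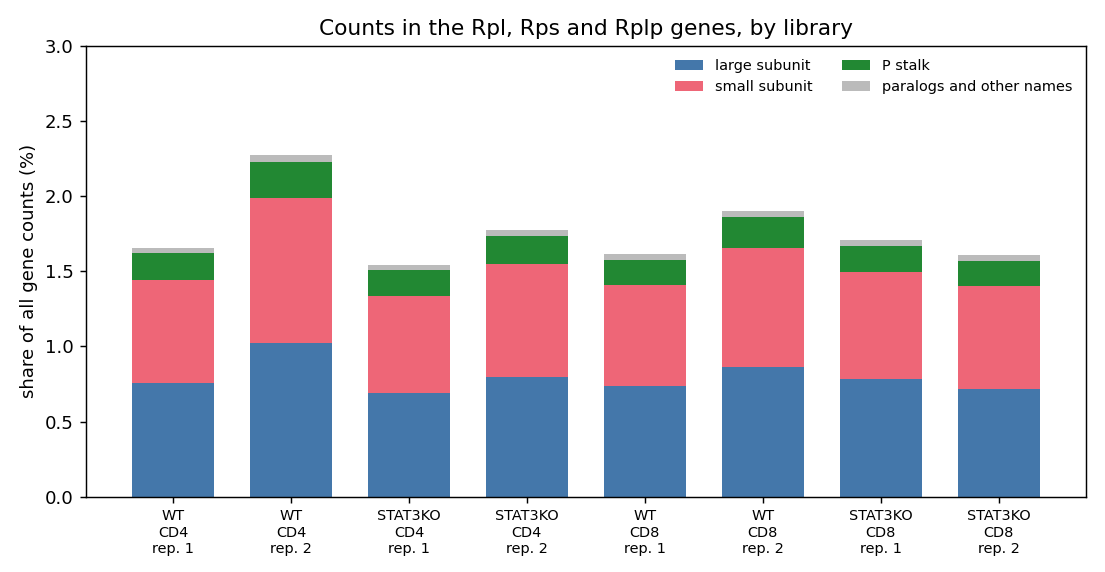
Share of all gene counts (%, vertical axis) that fell in the members, by library (horizontal axis), with colours for large subunit, small subunit, P stalk and the remaining members. WT CD4 replicate 2 stands highest at 2.27%, and the other 7 libraries lie between 1.54% and 1.90%.

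A few members carried most of these counts. Rpl4, a protein of the polypeptide exit tunnel, took 14.2% of the counts of the members summed over the libraries. Rps3, which lies where the messenger RNA enters, took 10.4%, followed by Rplp0 with 7.29%, Rpl8 with 6.70% and Rpl13a with 6.67%. In WT cells Rpl4 stood at 2409 and 3174 CPM (CD4) and at 2353 and 2687 CPM (CD8). In STAT3KO cells it stood at 2131 and 2406 CPM (CD4) and at 2471 and 2249 CPM (CD8). Again, WT CD4 replicate 2 was the highest library and the 4 groups otherwise lay close together.

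Levels of different genes were compared per transcript length, as the deposited RPKM. Averaged over the 8 libraries, the highest members included Rpl4 at 1731 RPKM, Rpl8 at 1351 RPKM, Rpl13a at 1134 RPKM and Rplp1 at 1101 RPKM. The 5 lowest tested members were Rpl34 at 1.13 RPKM, Rps29 at 1.32 RPKM, Rps4l at 1.70 RPKM, Rpl36a at 1.84 RPKM and Rpl23a at 2.08 RPKM. Of these, 4 are genes of structural subunits, though Rpl36a has the paralog Rpl36al, and Rps4l is a paralog of Rps4x. Thus, among the tested members, the deposited levels of messages whose proteins the ribosome holds in equal number spanned 1.13 to 1731 RPKM.

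The members that were not tested were Rpl10l, Rpl26 and Rps27rt with 0 counts in every library, Rpl3l with 5 counts in all and Rpl30 with 53 counts in all (0.482 RPKM on average). A count of 0 allows up to 3 counts, which is 0.126 to 0.150 CPM in these libraries (counting error only). Rps27rt covers almost the same positions on the same strand as Rps27. Reads there can match both rows, so its 0 does not show that the message is absent. Rpl26 and Rpl30 are large-subunit proteins of every cell, Rpl3l is known from muscle, and Rpl10l is known from testis.

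Ribosomal protein genes have many processed pseudogenes with nearly the same sequence. Of the transcripts of 85 members, every window of 51 bases (the length of a read) was compared with the other GENCODE M21 genes. Genes that overlap the member's own position were not compared. The share of windows found in none of the compared genes had a median of 57.8%. It was lowest at 1.36% in Rps27 and highest at 100%, as in Rpl39l. A pseudogene shared at least 1 window with 81 members, and under 50% of the windows were unique in 37 members. Those 37 members had a median level of 16.8 RPKM, against 69.0 RPKM in the 48 others. Across the 85 members, Spearman's rho between the mean RPKM and the unique share was 0.197 and Pearson's r on the log2(RPKM + 1) scale was 0.197, given as a description because the genes share libraries and copies. Unique windows did not go with a high level in each case. Rpl30 with 74.8%, Rpl34 with 67.0% and Rps29 with 64.4% unique windows lay at or under 1.32 RPKM, whereas Rplp1 with 40.5% stood at 1101 RPKM and Rps4x with 28.5% stood at 392 RPKM. How the authors' counting treated reads that match several places is not given in the sources used here, so levels between members are uncertain. The gene models also overlap: an exon on the other strand lies within the exons of 19 members, and one on the same strand within those of 28 members.

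**Figure D2:**
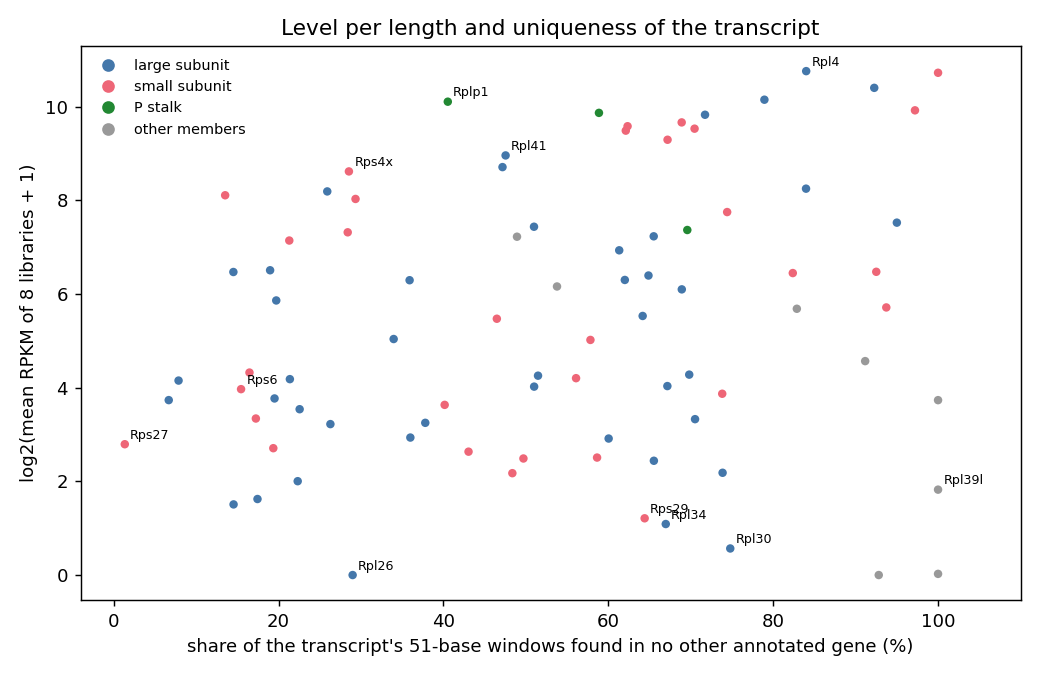
Mean level of each of 85 members over the 8 libraries, as log2(RPKM + 1) (vertical axis), coloured by role. The horizontal axis is the share of its 51-base windows (%) found in no other annotated gene, leaving out genes that overlap its position. High members such as Rplp1 lie at 40.5% unique windows, and Rpl30, Rpl34 and Rps29 lie near 0 RPKM in spite of 64.4% to 74.8%.

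Within each group except STAT3KO CD8 T cells, most members moved together between the replicates. In WT CD4 T cells, 71 of 84 tested members were higher in replicate 2, and the median difference was 0.41 (log2 CPM). In STAT3KO CD4 and WT CD8 T cells, 70 members each were higher in replicate 2, with medians of 0.18 and 0.20. In STAT3KO CD8 T cells, 39 members were higher in replicate 2 and the median was -0.027. Over all genes tested, the medians lay between -0.025 and 0.0032. The TMM scaling brings these medians near 0 by design, so the shift of the members is relative to the other genes. Of all genes tested, 47.2% (WT CD4), 50.4% (STAT3KO CD4) and 49.1% (WT CD8) were higher in replicate 2. Among the members these shares were 84.5%, 83.3% and 83.3%. In STAT3KO CD8 T cells they were 49.7% of all genes and 46.4% of the members. Of the 84 members, 53 had their highest level in WT CD4 replicate 2.

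In each group except STAT3KO CD8 T cells, the Myc message differed between the replicates in the direction opposite to the members' median. In STAT3KO CD8 T cells that median was -0.027, and Myc was lower in replicate 2 as well. In WT cells Myc stood at 167 and 65.3 CPM (CD4) and at 139 and 75.8 CPM (CD8). In STAT3KO cells it stood at 96.0 and 42.4 CPM (CD4) and at 76.7 and 48.7 CPM (CD8). Replicate 1 was the higher one in each group. The part of Myc in the members' levels was not tested.

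**Figure D3:**
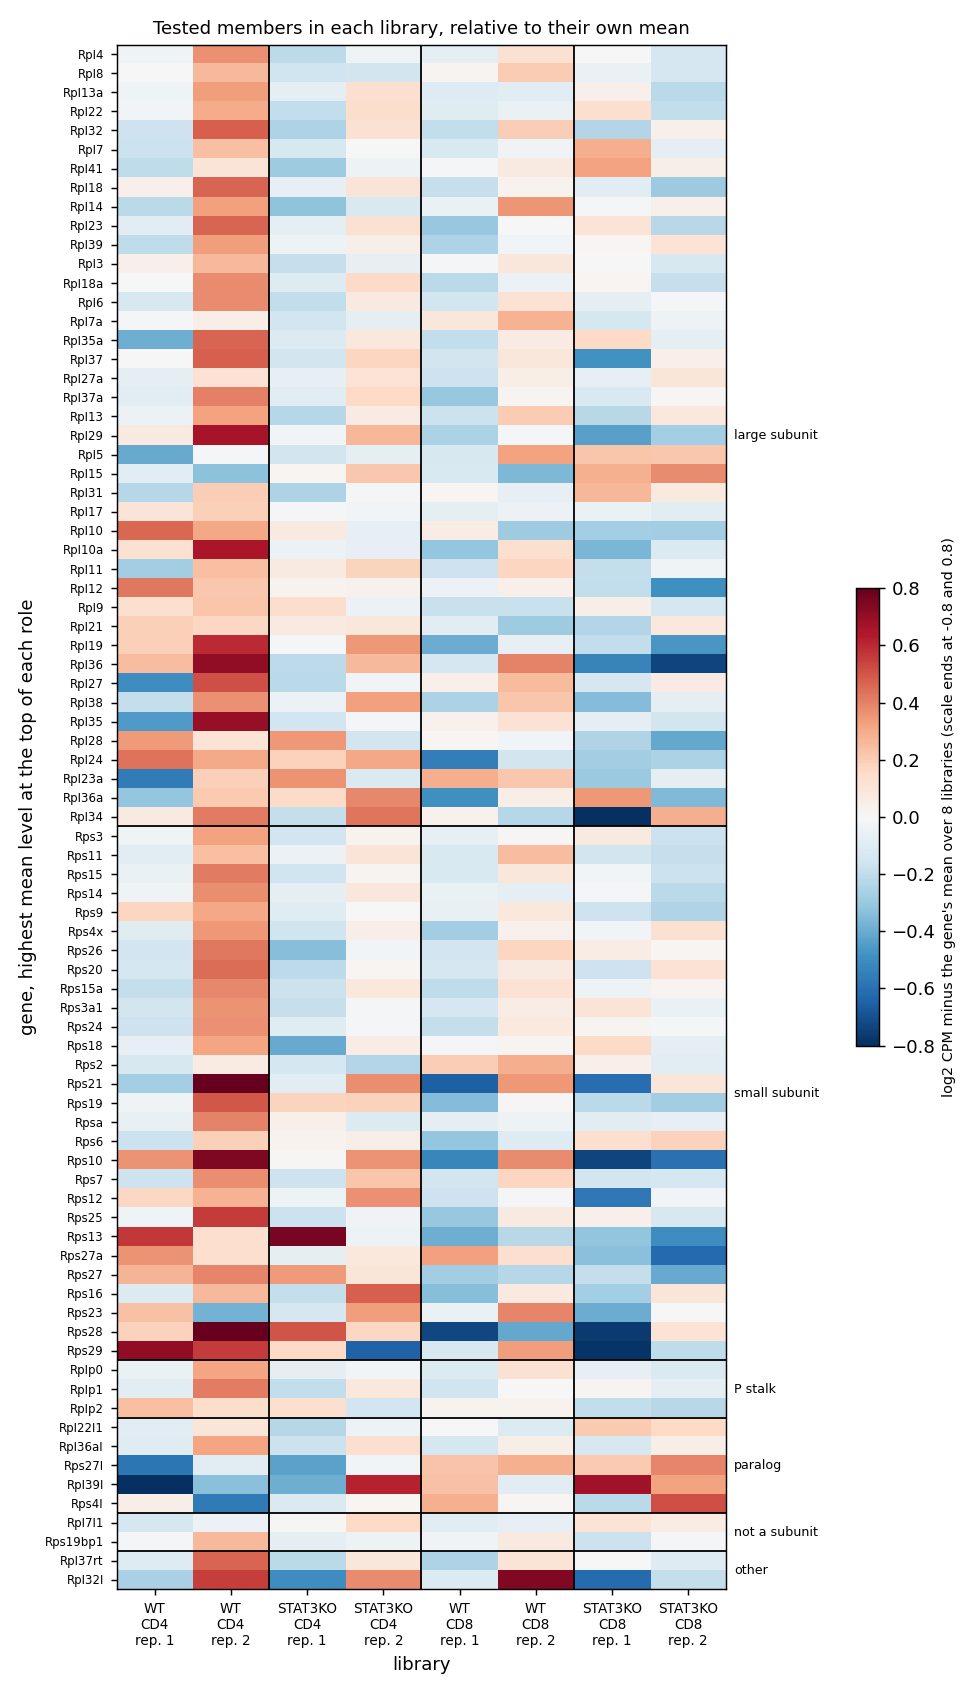
Log2 CPM of 81 of the 84 tested members (rows, ordered by role and level) in each library (columns), after subtracting the member's mean over the 8 libraries, with red above and blue below the mean. WT CD4 replicate 2 is red across most rows, being the highest library of 53 members.

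To ask whether STAT3 deficiency changed the ribosomal protein messages of CD4 T cells, STAT3KO was compared with WT CD4 T cells. None of the 84 members passed the test (edgeR quasi-likelihood, adjusted p under 0.05), that is 0 members, against 11.6% of all genes tested. At an unadjusted p under 0.05 there were 4 members against 27.5% of all genes, and DESeq2 called 0 members against 14.7% of all genes. The members nevertheless leaned to one side: 69 of 84 had a lower value in STAT3KO cells, with a median log2 fold change of -0.18 (0.885 of WT) beside 0.017 over all genes. Small-subunit members had a median of -0.21 with 27 of 31 lower, large-subunit members -0.16 with 34 of 41 lower, and the 3 stalk members -0.19 with 3 lower.

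The size of this lean differed between libraries. Of the pairs of libraries with the same number, replicates 1 gave a median difference of -0.078 (STAT3KO minus WT, 55 of 84 lower) and replicates 2 gave -0.28 (73 of 84 lower). Across numbers, STAT3KO replicate 1 against WT replicate 2 gave -0.44 and STAT3KO replicate 2 against WT replicate 1 gave 0.15. In the fit without WT CD4 replicate 2 the median was 0.033, and it was -0.34 without WT CD4 replicate 1. The groups did not overlap for 17 members that were lower and 2 that were higher, or 20.2% and 2.38% of those tested, beside 25% and 28.5% of all genes.

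Rpl10, one of the last proteins to join the large subunit, was at 18.2 and 16.4 CPM in WT CD4 and at 13.9 and 12.7 CPM in STAT3KO CD4 T cells. Its groups did not overlap, the log2 fold change was -0.38 ± 0.16 (SE), and the adjusted p was 0.162 (edgeR). Rpl8, which lies near the catalytic centre, was at 1172 and 1403 CPM in WT and at 1049 and 1056 CPM in STAT3KO cells, with a log2 fold change of -0.29 ± 0.11 and an adjusted p of 0.144. Rpl3, the counterpart of the muscle paralog, was at 124 and 143 CPM in WT and at 106 and 115 CPM in STAT3KO cells, with a log2 fold change of -0.28 ± 0.11 and an adjusted p of 0.159. In all 3 the highest STAT3KO library lay below the lowest WT library. Of their windows, 7.88% (Rpl10), 92.3% (Rpl8) and 14.5% (Rpl3) were unique, and 26 pseudogenes share windows with Rpl3.

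The lowest log2 fold changes included those of Rps29 (-0.96 ± 0.52), Rpl10a (-0.47 ± 0.23), Rpl36 (-0.46 ± 0.28) and Rps25 (-0.39 ± 0.23), with adjusted p from 0.228 to 0.349. Rps29 was close to the detection floor, at 0.848 and 0.756 CPM in WT and 0.550 and 0.274 CPM in STAT3KO CD4 T cells. The 5 highest belonged to Rpl39l (0.89 ± 0.45), Rpl36a (0.33 ± 0.45), Rpl15 (0.32 ± 0.14), Rpl23a (0.29 ± 0.40) and Rps4l (0.19 ± 0.40). Rpl15 apart, they stood at 3.02 CPM or less in each CD4 library.

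**Figure D4:**
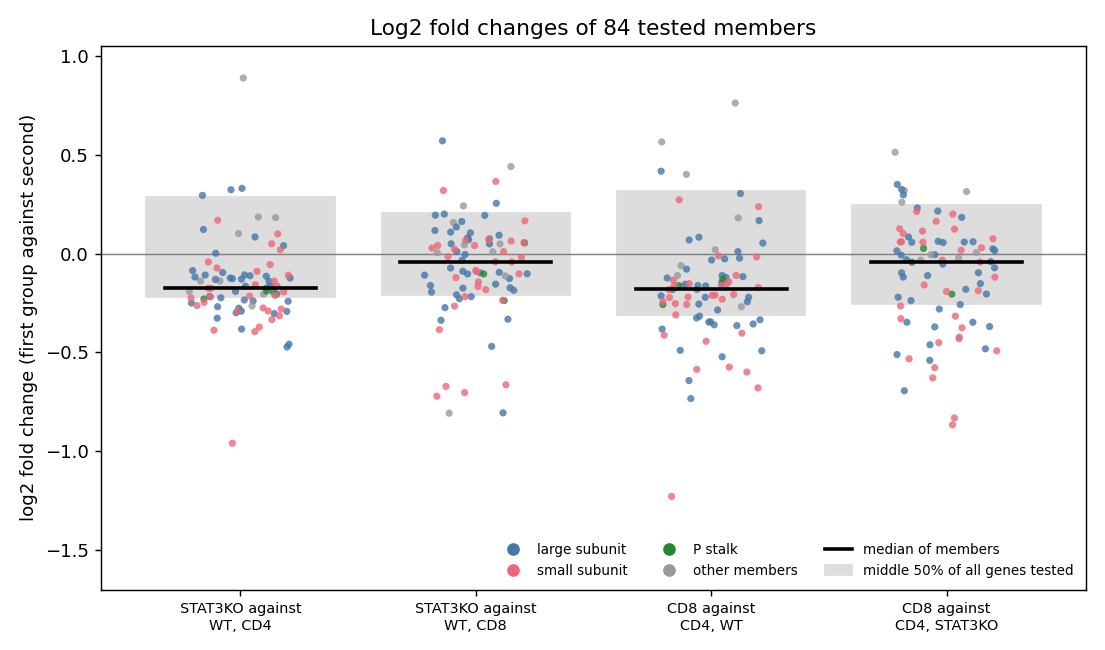
Log2 fold change (vertical axis) of the 84 tested members (points, coloured by role) in 4 comparisons (horizontal axis), with the members' median as a black line and the middle 50% of all genes tested as a grey band. The medians are -0.18, -0.042, -0.18 and -0.042, all inside the grey band, and no point passed the test.

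Over all genes, replicates with the same number deviated together in all groups (r from 0.424 to 0.671). Within the members alone r lay between 0.0498 and 0.426. A term for the replicate number changed the count of called members. With that replicate block, 6 members were lower in STAT3KO CD4 T cells and 0 were higher. They included Rpl10, Rpl10a, Rpl3, Rpl8 and, named after its value was seen, Rps9. That is 7.14% of the members, against 30.1% of all genes called with the same block. The adjusted p of the 6 lay between 0.0241 and 0.0488.

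In CD8 T cells the same comparison gave 0 called members, against 2.07% of all genes. At an unadjusted p under 0.05 there were 6 members against 19.3% of all genes. The median log2 fold change was -0.042, with 47 of 84 lower, beside -0.0071 over all genes. The groups did not overlap for 8 members that were higher and 17 that were lower, or 9.52% and 20.2%, beside 24.9% and 24.8% of all genes.

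Rpl15, a large-subunit protein, had the highest log2 fold change in CD8 T cells. It was at 33.3 and 28.2 CPM in WT CD8 and at 44.2 and 47.2 CPM in STAT3KO CD8 T cells. The groups did not overlap, with a log2 fold change of 0.57 ± 0.14 (95% interval 0.25 to 0.89) and an adjusted p of 0.0838 by edgeR. DESeq2 called it (adjusted p = 0.0208, 1 member against 6.8% of all genes), and so did the replicate block (adjusted p = 0.0119). In CD4 T cells Rpl15 was at 34.1 and 28.8 CPM in WT and at 36.6 and 42.1 CPM in STAT3KO cells, again without overlap (log2 fold change 0.32 ± 0.14, adjusted p = 0.183). The difference between the CD8 and CD4 effects was 0.25 ± 0.20 (adjusted p = 0.927). An exon of Nkiras1 lies on the other strand within the exons of Rpl15, and 22 pseudogenes share windows with it, while 69.8% of its windows were unique.

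Rps27a, which is made as a fusion with ubiquitin, was at 5.32 and 4.63 CPM in WT CD8 and at 3.33 and 2.71 CPM in STAT3KO CD8 T cells. Its log2 fold change was -0.72 ± 0.22 (interval -1.24 to -0.20) with an adjusted p of 0.137. Rpl36 was at 4.50 and 6.53 CPM in WT and at 3.38 and 2.93 CPM in STAT3KO cells, with a log2 fold change of -0.81 ± 0.29 and an adjusted p of 0.185. Both were lower in every STAT3KO library than in any WT library. Of their windows, 43.0% (Rps27a) and 19.5% (Rpl36) were unique. Rps6, the substrate of the S6 kinases, was at 16.6 and 19.1 CPM in WT CD8 and at 22.5 and 23.4 CPM in STAT3KO CD8 T cells (log2 fold change 0.36 ± 0.15, adjusted p = 0.233).

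The remaining extremes in CD8 T cells were low in level. Rpl32l (-0.81 ± 0.50) and Rps29 (-0.70 ± 0.54) were among the 5 lowest log2 fold changes. Rpl39l (0.44 ± 0.43), Rps28 (0.32 ± 0.44) and Rpl36a (0.25 ± 0.45) were among the 5 highest. Their adjusted p lay between 0.446 and 0.828. With the replicate block, 5 members were called, or 5.95% against 18.2% of all genes: Rpl15 was higher, and Rpl36, Rps27a and, named after their values were seen, Rpl7a and Rps10 were lower.

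**Figure D5:**
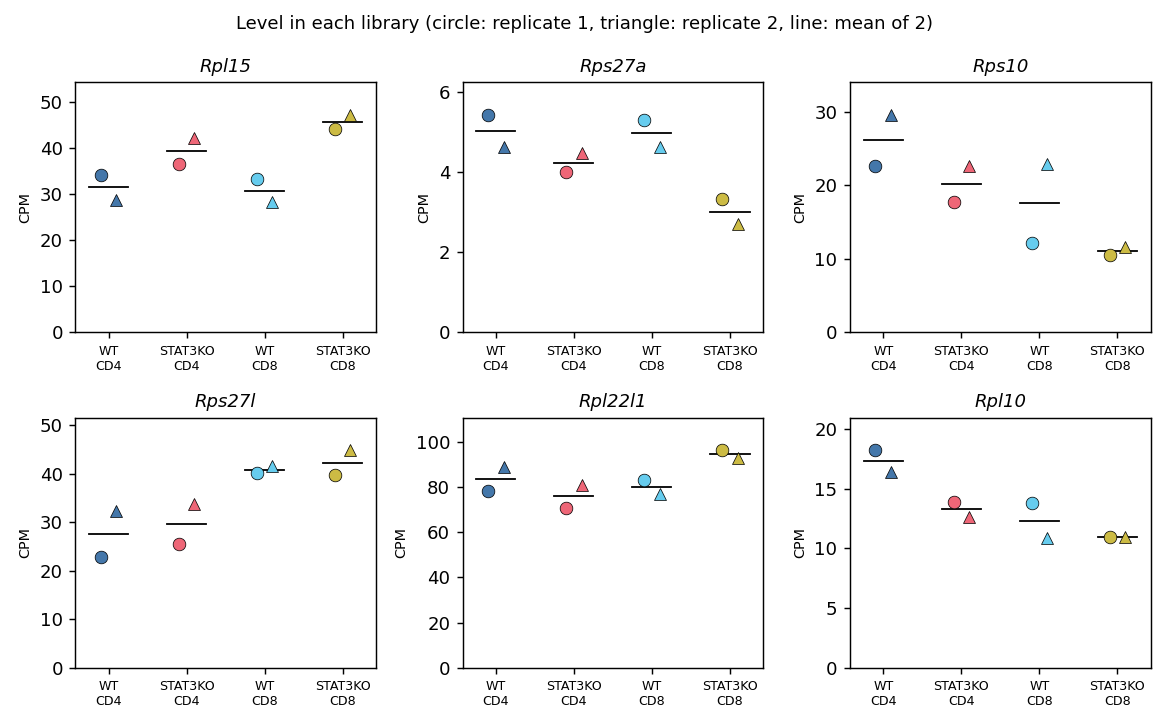
CPM (vertical axes, from 0) of 6 members in the 4 groups (horizontal axes), with a circle for replicate 1, a triangle for replicate 2 and a line at their mean. Rpl15 is higher in both STAT3KO groups, and Rps27l is higher in both CD8 groups, without overlap of the libraries.

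The effects of STAT3 deficiency in CD8 and CD4 T cells were then compared directly. For this interaction 0 members passed, as did 0% of all genes, and 1 member (Rpl22l1) against 7.9% of all genes had an unadjusted p under 0.05. In WT cells Rpl22l1 was at 77.9 and 88.8 CPM (CD4) and at 82.8 and 77.0 CPM (CD8). In STAT3KO cells it was at 70.7 and 80.8 CPM (CD4) and at 96.1 and 92.8 CPM (CD8). The STAT3KO libraries were apart from WT in CD8 T cells and overlapped with WT in CD4 T cells. The difference of effects was 0.38 ± 0.16 (interval 0.0083 to 0.75, adjusted p = 0.619). With the replicate block 0 members were called against 3.24% of all genes, and DESeq2 called 0 against 1.41%. The median difference over the 84 members was 0.14 beside -0.020 over all genes, and it was -0.061 without WT CD4 replicate 2.

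For each genotype, CD8 and CD4 T cells were next compared. The libraries are those used above, so that these values are not independent of the STAT3KO comparisons. In WT cells, 0 members passed, against 23.8% of all genes, and 8 against 36.1% had an unadjusted p under 0.05. Of the 84 members, 70 were lower in CD8 T cells, with a median log2 fold change of -0.18 beside 0.0011 over all genes. Libraries with the same number gave medians of -0.061 (replicates 1) and -0.27 (replicates 2). In the fit without WT CD4 replicate 2 the median was 0.024, and it was -0.38 without WT CD4 replicate 1. In 22 members CD8 lay below CD4 T cells without overlap and in 5 above, or 26.2% and 5.95%, beside 30% and 29.2% of all genes.

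In STAT3KO cells, 0 members passed, against 12.5% of all genes, and 7 against 27.5% had an unadjusted p under 0.05. The median log2 fold change was -0.042 with 50 of 84 lower in CD8 T cells. It was 0.052 without STAT3KO CD4 replicate 2. CD8 lay below CD4 T cells without overlap in 22 members and above in 12, or 26.2% and 14.3%, beside 28.7% and 29.6% of all genes.

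Rps27l, a paralog of Rps27 that is a known p53 target, was higher in every CD8 than in any CD4 library. In WT cells it was at 22.9 and 32.3 CPM (CD4) and at 40.1 and 41.6 CPM (CD8). In STAT3KO cells it was at 25.5 and 33.8 CPM (CD4) and at 39.7 and 44.8 CPM (CD8). The log2 fold change was 0.56 ± 0.19 in WT (adjusted p = 0.0724) and 0.51 ± 0.19 in STAT3KO cells (adjusted p = 0.132). DESeq2 called Rps27l in WT cells (adjusted p = 0.0392, 1 member against 25.4% of all genes), and the replicate block called it in both genotypes (adjusted p = 0.00288 and 0.00801). Its counterpart Rps27 went the other way, at 4.09 and 4.44 CPM in WT CD4 against 2.77 and 2.86 CPM in WT CD8 T cells (log2 fold change -0.60 ± 0.23, adjusted p = 0.0981). Only 1.36% of the windows of Rps27 were unique, against 82.9% of those of Rps27l. The row of Rps27rt, which had 0 counts, covers almost the same positions on the same strand as Rps27. The level of Rps27 and its direction are therefore uncertain.

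Rps10, a small-subunit protein, was at 17.7 and 22.6 CPM in STAT3KO CD4 and at 10.5 and 11.6 CPM in STAT3KO CD8 T cells, without overlap. Exons of RPS10-NUDT3 on the same strand and of Gm15420 on the other strand overlap those of Rps10. The log2 fold change was -0.87 ± 0.29 with an adjusted p of 0.0993 by edgeR and 0.0348 by DESeq2, which called 1 member against 15.9% of all genes. In WT cells the libraries overlapped, with 22.6 and 29.5 CPM in CD4 and 12.2 and 22.8 CPM in CD8 T cells (log2 fold change -0.57 ± 0.29, adjusted p = 0.193). The replicate block called Rps10 in both genotypes (adjusted p = 0.0116 in WT and 0.00355 in STAT3KO). Without WT CD8 replicate 2, the log2 fold change of Rps10 in WT was -1.10. Rpl10 had the smallest adjusted p of the WT comparison, 0.0570, with 13.8 and 10.9 CPM in WT CD8 T cells beside the 18.2 and 16.4 CPM of WT CD4 T cells (log2 fold change -0.49 ± 0.16). Rpl10 was called with the replicate block (adjusted p = 0.0103), with column totals (0.0436) and by limma on RPKM (0.0391). Only 7.88% of the windows of Rpl10 were unique, and 14 pseudogenes share windows with it.

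Of the other extremes, Rps28 (-1.23 ± 0.44), Rpl24 (-0.73 ± 0.29) and Rps13 (-0.68 ± 0.30) had the lowest log2 fold changes in WT cells, and Rpl39l (0.76 ± 0.44) and Rpl23a (0.42 ± 0.40) were among the highest. Rps13 apart, these stood at 3.36 CPM or less in each WT library. Only 22.3% (Rpl24) and 17.3% (Rps13) of windows were unique. In STAT3KO cells, Rps13 (-0.83 ± 0.30) and Rpl36 (-0.69 ± 0.29) were among the lowest, and Rpl41 (0.35 ± 0.15) and Rpl5 (0.32 ± 0.18) among the highest. With the replicate block, 17 members were lower and 2 higher in CD8 T cells of WT, or 22.6% against 42.1% of all genes. The lower ones included Rps28 (adjusted p = 0.0184), Rpl10a (0.0265), Rps19 (0.0350), Rps13 (0.0412), Rps27 (0.0421), Rps4x (0.0430) and Rpl24 (0.0470). In STAT3KO cells 7 were lower and 2 higher, or 10.7% against 29.7% of all genes. These included Rps13 (adjusted p = 0.0254), Rps19 (0.0389) and Rpl36 (0.0418), which were lower, and Rpl22l1 (0.0282), which was higher.

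Several ribosomal proteins have a second gene. Rpl22 stood at 400.1 to 564 CPM and Rpl22l1 at 70.7 to 96.1 CPM. Rpl39 stood at 111 to 166 CPM and Rpl39l, known mainly from germ cells, at 0.898 to 3.14 CPM. In CPM, which does not correct for length, Rpl36al at 32.5 to 45.6 CPM lay above its counterpart Rpl36a at 0.605 to 1.19 CPM, of which 14.5% of windows were unique. Rps4x stood at 315 to 486 CPM and Rps4l at 1.04 to 2.30 CPM. None of these paralogs or counterparts was called in the STAT3KO comparisons by edgeR.

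The members with a known role outside or beyond a single subunit position were as follows. Rpl5 and Rpl11, which bind Mdm2 when ribosome assembly fails, had log2 fold changes (STAT3KO against WT) of 0.084 ± 0.18 and 0.12 ± 0.21 in CD4 T cells, and of 0.10 ± 0.18 and -0.13 ± 0.21 in CD8 T cells. Rps19, which is mutated in Diamond-Blackfan anaemia, had -0.073 ± 0.19 (CD4) and -0.091 ± 0.19 (CD8). Rpsa, also known as the laminin receptor precursor, had -0.22 ± 0.15 and -0.019 ± 0.15. The stalk protein Rplp2 was at 88.9 and 82.8 CPM in WT CD4 and 82.6 and 67.5 CPM in STAT3KO CD4 T cells, with a log2 fold change of -0.19 ± 0.12. In CD8 T cells it was -0.24 ± 0.12. All of these intervals include 0.

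Ribosomal proteins that carry other names gave no calls either. Fau was at 220 and 340.1 CPM in WT CD4 and 219 and 262 CPM in STAT3KO CD4 T cells. Rack1, which sits on the small subunit, was at 1997 and 2545 CPM in WT CD4 and 1844 and 1949 CPM in STAT3KO CD4 T cells. Neither was called in any comparison.

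The rest of the translation machinery was read against the 11.6% (CD4) and 2.07% (CD8) of all genes that were called with STAT3 deficiency. In both cell types, 0 of 6 elongation factors, 0 of 27 tested initiation factors, 0 of 7 other TOP messages and 0 of 17 genes of mTORC1, the S6 kinases and TOP control were called. Their median log2 fold changes were -0.28, -0.14, -0.11 and -0.070 in CD4 T cells and -0.17, -0.057, -0.044 and -0.030 in CD8 T cells. Of 9 tested genes of ribosome stress and p53, Ccng1, a cyclin induced by p53, was called higher in STAT3KO CD4 T cells. It was at 255 and 273 CPM in WT and at 336 and 368 CPM in STAT3KO cells (log2 fold change 0.42 ± 0.10, adjusted p = 0.0414). In CD8 T cells 0 of these 9 were called, but Ccng1 had a log2 fold change of 0.50 ± 0.10 there (adjusted p = 0.0623, edgeR). Its levels were 225 and 210 CPM in WT CD8 and 306 and 308 CPM in STAT3KO CD8 T cells.

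Of 19 genes that build the ribosome, 18 were lower in STAT3KO CD4 T cells with a median log2 fold change of -0.31 beside 0.017 over all genes. Of these, 3 were called, against 11.6% of all genes. Rrp12, which acts in the export of subunits from the nucleus, was at 54.3 and 53.4 CPM in WT CD4 and at 35.4 and 32.7 CPM in STAT3KO CD4 T cells (log2 fold change -0.66 ± 0.11, adjusted p = 0.00985). Wdr12, a member of the complex that matures large-subunit RNA, was at 74.7 and 100.7 CPM in WT CD4 and at 52.7 and 56.5 CPM in STAT3KO CD4 T cells (-0.68 ± 0.15, adjusted p = 0.0282). Polr1a, the largest subunit of RNA polymerase I, was at 90.6 and 88.3 CPM in WT CD4 and at 72.2 and 69.5 CPM in STAT3KO CD4 T cells (-0.34 ± 0.088, adjusted p = 0.0487). In CD8 T cells 16 of 19 were lower with a median of -0.16 beside -0.0071 over all genes, and 1, Rrp12, was called, against 2.07% of all genes (56.5 and 64.1 CPM in WT, 42.2 and 39.2 CPM in STAT3KO cells, adjusted p = 0.0476). Polr1a had -0.34 ± 0.088 in CD8 T cells as well (adjusted p = 0.0922, edgeR). Wdr12 had 0.067 ± 0.16 there (adjusted p = 0.875, edgeR). Myc, which was on this list, was not called, with log2 fold changes of -0.75 ± 0.54 in CD4 and -0.77 ± 0.54 in CD8.

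Between CD8 and CD4 T cells the neighbouring lists held called genes in both directions, beside 23.8% (WT) and 12.5% (STAT3KO) of all genes. In WT cells, 1 of 6 elongation factors was higher and 2 of 27 initiation factors were lower. Of 7 other TOP messages 1 was higher and 1 lower, and of 17 genes of the mTORC1 list 2 were higher and 1 lower. Of 9 genes of ribosome stress and p53 2 were lower, and of 19 assembly genes 1 was lower. In WT cells Wdr12 was lower in CD8 T cells (log2 fold change -1.71 ± 0.16, adjusted p = 0.000350), as were the initiation factors Eif4a2 and Eif5 and the TOP message Tpt1. The mTORC1 inhibitor Tsc1 and the p53 targets Bbc3 and Cdkn1a were lower as well. The elongation factor Eef1d, the TOP message Nap1l1, the translation repressor Eif4ebp1 and Tbc1d7 were higher. Nap1l1, a histone chaperone, was at 133 and 128 CPM in WT CD4 and at 239 and 210 CPM in WT CD8 T cells (0.78 ± 0.11, adjusted p = 0.00181). Tpt1 was at 41.3 and 47.2 CPM in WT CD4 and at 28.5 and 32.5 CPM in WT CD8 T cells (-0.54 ± 0.14, adjusted p = 0.030). In STAT3KO cells Nap1l1, the snoRNP protein Dkc1 and the S6 kinase Rps6kb1 were called higher in CD8 T cells, and Wdr12, Tpt1 and Cdkn1a were called lower.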

How the data were processed

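The authors sequenced single-end reads of 8 libraries, aligned them with STAR to mm10 and used HTSeq for the counts of RefSeq genes. The deposited values are raw counts and RPKM (counts scaled by exon length and library size, computed by the authors) for each gene. Whether strand was used is not given in the sources used here, the methods and labels name different library kits, and label fields on a cell line do not match these samples. From the counts, genes with at least 10 counts by group (filterByExpr) were kept, scaled by TMM and fitted with all 8 libraries in edgeR 4.0.16 (quasi-likelihood, R 4.3.3), with a Benjamini-Hochberg adjusted p under 0.05. Standard errors come from the F statistic. Fitted fold changes use edgeR, DESeq2 1.42.0 and, on log2(RPKM + 1), limma 3.58.1. Scripts were tested on simulated data. Depth allows 0.126 to 0.150 CPM (3 counts) for a count of 0, for counting error only.

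Members and lists were chosen with earlier results of these data known. Genes named were the 5 highest and 5 lowest log2 fold changes of each STAT3KO comparison, the 3 highest and 3 lowest of each CD8 comparison, paralog pairs, listed members of special role, the 5 highest and lowest RPKM, and called list genes. Some genes that this rule takes are not reported by name here. Labels gave replicate numbers 1 and 2, and deviations of libraries with the same number correlated over 12428 genes in all 6 pairs of groups (r from 0.424 to 0.671), so the fit with a replicate block is given where it changes the call of a named member. Within the members alone these correlations lay between 0.0498 and 0.426. The labels do not say that the number marks a shared day. Windows of 51 bases were compared with GENCODE M21 transcripts of genes that do not overlap the member, and starts came from RefSeq GRCm38.p6. Alternatives were DESeq2, other scalings, no filter, RPKM with limma, the block, only the libraries of a comparison, each library left out, and, added after the data were seen, only members with at least 50% unique windows and only structural subunits. In 26 rows the name is a date, and these rows were left as they are.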

Additional observations from a re-analysis of the deposited data

How the results depend on the processing

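Counts of called members, which were 0 in each comparison, rose under some settings. With the replicate block they were 6 and 5 for STAT3KO against WT in CD4 and CD8, and 19 and 9 for CD8 against CD4 in WT and STAT3KO, while the interaction stayed at 0; the block moved no median past the spread of the pairs. DESeq2 called 1 member in each comparison except STAT3KO against WT in CD4 and the interaction, where it called 0. For CD8 against CD4 in WT, column totals gave 1 of 84 members and RPKM with limma gave 3. For CD8 against CD4 in STAT3KO, no filter gave 1 and a fit of only the 4 libraries of the comparison gave 2. In the main fit, 23.8% (WT) and 12.5% (STAT3KO) of all genes were called in these comparisons. The shares of all genes under the other settings of these comparisons are not given here. Counts with 1 library left out are not given, because such a fit leaves a group with 1 sample.

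The median of the members ranged from -0.34 to 0.033 for STAT3KO against WT in CD4 with a library left out, from -0.38 to 0.024 for CD8 against CD4 in WT, and from -0.061 to 0.31 for the interaction, which was 0.16 without the filter. For CD8 against CD4 in STAT3KO it reached 0.052. Other scalings shifted all genes by a median of no more than 0.042. Named members that changed sign were Rps4l (-0.11 to 0.55) and Rpl23a (-0.054 to 0.76) in CD4, and Rpl36a (-0.18 to 0.59, also -0.018) and Rps28 (-0.23 to 0.71) in CD8, each with a library left out and at low counts. The causes were not tested. A library left out leaves its group with 1 sample, assumed to vary like the others.

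Members with at least 50% unique windows, and structural subunits, were also read separately from the main fit without a new fit. That fit called 0 members, so the 0 calls in both subsets follow from it and are no further test.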

Other observations

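Pseudogene rows, which the rule left out, also held counts. Rpl14-ps1 stood at 265 to 426 CPM over the 8 libraries, above the 129 to 206 CPM of Rpl14 in the same libraries, and 50.99% of the windows of Rpl14 were unique. Rps6-ps4 stood at 8.87 to 15.1 CPM, beside 16.6 to 23.4 CPM of Rps6, of which 15.5% of windows were unique. Rpl34-ps1 and Rplp2-ps1 had 0 counts in every library. The 2 members without an assigned role also differed in level: Rpl37rt stood at 124 to 204 CPM, above the 41.5 to 81.2 CPM of Rpl37, and Rpl32l stood at 0.916 to 2.48 CPM, beside 384 to 634 CPM of Rpl32. Whether these rows take reads of the parent genes was not tested.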
